A study of Mus musculus with 295 samples.

Results

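Arntl and Dbp are 2 genes of the circadian clock, chosen here by name, out of 11454 named genes measured in mouse adipose tissue. Each had 1 probe on the array, and both probes gave a value in all 295 mice. Arntl (gene ID 11865) lies at chr7:113178471-113314126 and Dbp (gene ID 13170) at chr7:45705100-45710203 of mouse genome build GRCm38.p6, so both stand on chromosome 7, far apart.

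The mice were F2 offspring of a cross between the inbred strains C57BL/6J and C3H/HeJ, both ApoE null, so every mouse lacked ApoE. All were fed a Western diet high in fat from 8 to 24 weeks of age. RNA of each mouse, labelled with Cy3, was hybridised on 1 array against a Cy5-labelled pool made of equal parts of all the RNAs, and a value therefore compares 1 mouse with the mean of all mice. The labels form 1 group, name no sex, genotype or hour of collection for a mouse, and give each mouse a number.

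The clock is a feedback loop of transcription. The Arntl product, BMAL1, pairs with CLOCK, binds E-boxes and switches on Per, Cry, Nr1d1, Nr1d2 and Dbp. PER and CRY proteins then shut BMAL1 and CLOCK off, while the REV-ERB proteins made from Nr1d1 and Nr1d2 repress Arntl and Nfil3 and compete with ROR activators for the same sites. DBP activates D-boxes, and NFIL3 represses them. In adipose tissue, as in liver, the Arntl and Dbp transcripts are known to peak at different times of day.

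The promoter sequences are shown because these 3 binding motifs are the textbook links between the genes that moved with Arntl and Dbp below. They were taken from RefSeq windows of build GRCm38.p6, which run from 250 bases before to 50 bases after a gene's start. Here are the 250 bases before the first of the 2 listed Arntl starts, chr7:113207215-113207464 on the plus strand, and the 250 bases before the Dbp start, chr7:45704997-45705246 on the plus strand, with each CCAAT box (CCAAT or, on the other strand, ATTGG) in capitals.
Arntl: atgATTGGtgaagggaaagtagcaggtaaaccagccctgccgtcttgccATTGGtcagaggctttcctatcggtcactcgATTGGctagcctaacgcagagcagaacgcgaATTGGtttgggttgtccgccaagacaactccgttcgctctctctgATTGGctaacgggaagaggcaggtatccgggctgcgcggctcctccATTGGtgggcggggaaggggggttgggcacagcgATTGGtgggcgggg
Dbp: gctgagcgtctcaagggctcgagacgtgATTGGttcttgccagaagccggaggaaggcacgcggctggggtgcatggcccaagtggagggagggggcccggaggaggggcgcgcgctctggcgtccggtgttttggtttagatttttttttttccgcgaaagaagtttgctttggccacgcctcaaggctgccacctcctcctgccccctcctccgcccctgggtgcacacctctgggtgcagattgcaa
The Arntl stretch held 7 CCAAT boxes, a count reached by 3 of 32817 windows of this length, 2 of which are the overlapping Arntl windows. Dbp held 1, and 33.8% of windows held at least 1. Both stretches were rich in G and C, at 58.8% for Arntl and 62.4% for Dbp, against a median of 52.4% over all windows.

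Both strands of the full windows were searched for AGGTCA (the core of REV-ERB and ROR sites), CACGTG (an E-box) and TTANGTAA (a D-box). AGGTCA occurred in 16.3% of the 32817 windows, CACGTG in 7.15% and TTANGTAA in 2.32%. The second Arntl window held AGGTCA 32 bases after its start, and the Dbp window held none of the 3 motifs. Nfil3 and Nr1d2, the genes that moved most closely with and against Arntl, each held AGGTCA within 100 bases of their start, and Per3 held 2 D-boxes. These 30-base stretches are written along each gene's own strand with the match in capitals, and no match overlaps another.
Arntl, chr7:113207530-113207559, plus strand: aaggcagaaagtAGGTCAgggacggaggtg
Nfil3, chr13:52981034-52981063, minus strand: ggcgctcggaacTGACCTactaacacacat
Nr1d2, chr14:18239166-18239195, minus strand: gattggaagaagAGGTCAggaccgctcgtt
Per3, chr4:151044852-151044881, minus strand: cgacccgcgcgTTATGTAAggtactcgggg
Per3, chr4:151044805-151044834, minus strand: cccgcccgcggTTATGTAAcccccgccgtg
Of 9 clock repressor genes with a window, 4 held CACGTG (Per1, Bhlhe41, Ciart and Tef), 2 held AGGTCA (Per1 and Nr1d2) and 1 held TTANGTAA (Per3). Ciart was not measured, and Per1 and Tef passed with neither Arntl nor Dbp over all mice. These are thus not counts of genes that moved with Arntl or Dbp. A gene can have several windows, so they do not compare directly with the shares of windows. These are matches of letters only, and a window without a match says nothing about sites elsewhere in the gene.

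Some features of the mice bear on every value below. Mice fell into separate clusters by Eif2s3y, a Y-linked gene: 142 Eif2s3y-low mice lay at or below a log2 ratio of -4.16 and 153 Eif2s3y-high mice at or above -0.10. Of the latter, 48 carried transcripts of the epididymis, an organ next to the gonadal fat pad, and 105 did not. Both splits were made at the widest gap in the marker level, and values were compared within these 3 sets. The mice numbered from 334 up stood apart in Arntl and Dbp, as described next, and most results are given with and without them. Values are relative to the pool, so they cannot show whether an adipocyte marker is present or absent, and fewer cells of a type cannot be told apart from less RNA per cell. With 1 array per mouse, technical error is part of the spread between mice.

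The last 25 mice by number held Arntl above and Dbp below the mean of their own set, all 25 of them. Among these mice, numbered 334 to 399, Arntl log2 ratios ran from 0.63 to 1.73 with a median of 1.21. In the 270 mice numbered below 334 they ran from -1.47 to 0.81 with a median of -0.03. Dbp ran from -0.93 to 0.09 with a median of -0.61 in the 25 mice, and from -0.83 to 1.07 with a median of -0.03 in the other 270. Against the mean of their own set, all 25 mice were above for Arntl and all 25 below for Dbp, compared with 120 and 146 of 270 above before them. The ranges of the 2 stretches overlapped for both genes.

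The change came between 2 successive mice. The mice just before it varied: mice 322, 323 and 325 had Arntl at -0.20, -0.11 and -0.03 and Dbp at -0.30, -0.19 and -0.10. Mice 326, 327, 331 and 332 had Arntl at -1.43, -0.72, -1.14 and -1.44 and Dbp at 1.07, -0.15, 0.73 and 0.73. Mice 334, 335 and 336 had Arntl at 1.23, 1.68 and 1.64 and Dbp at -0.76, -0.67 and -0.56. These ratios keep the set means: the mice named from 322 to 332 were all Eif2s3y-low, and 334 to 336 were Eif2s3y-high. The step between them therefore includes the difference between those sets. The next mouse, 337, was Eif2s3y-low and had Arntl at 1.21 and Dbp at -0.31. The 25 mice comprised 7 Eif2s3y-low mice, 17 Eif2s3y-high mice free of epididymis transcripts and 1 with them. One mouse is numbered 399 in its title and 339 in its source name, and either number places it in this stretch. These mice were recognised by their values and are not a group of the study, so their levels are described with no test.

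**Figure D1:**
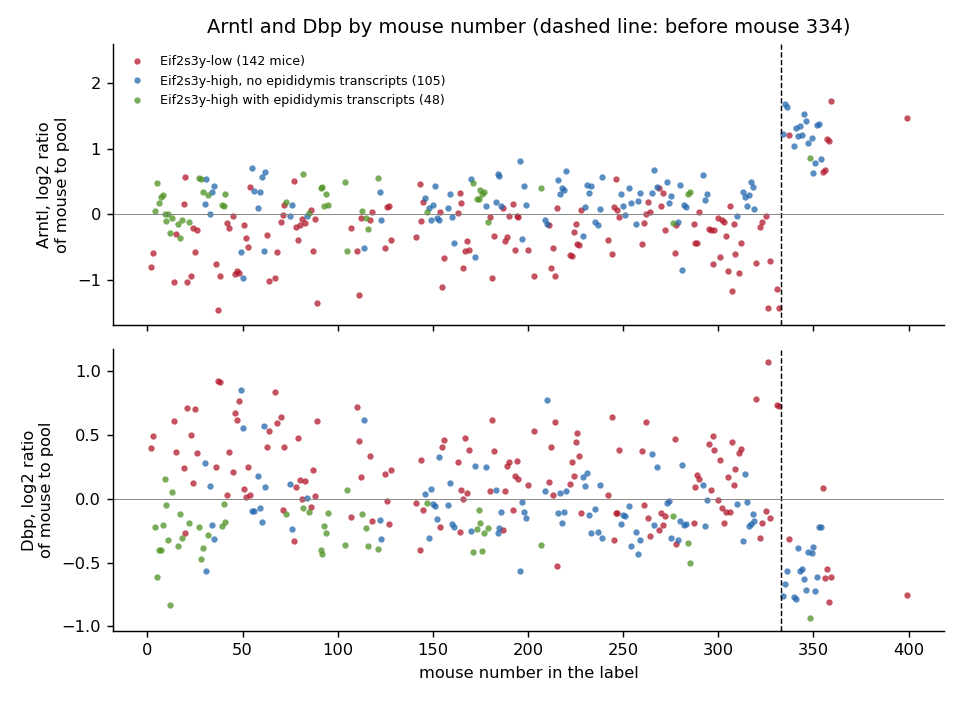
Log2 ratio of each mouse to the pool for Arntl (top) and Dbp (bottom) against the mouse number, 1 point per mouse, coloured by set. To the right of the dashed line, the 25 mice numbered 334 and above lie between 0.63 and 1.73 for Arntl and between -0.93 and 0.09 for Dbp.

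Some other clock genes stood to one side in the same 25 mice, and others did not. How many of all probes leaned as far in these mice was not counted, so the counts below have no background. Nfil3, the D-box repressor, was above its set mean in 23 of the 25, with log2 ratios from 0.0012 to 1.20 and a median of 0.37, against a median of -0.02 before mouse 334. Nr1d2, which encodes REV-ERB beta, was below in 24, from -0.95 to 0.02 with a median of -0.53, against 0.08 before. Bhlhe40, a repressor induced through E-boxes, was below in 23, Per3 in 21, Nr1d1 in 20 and Per2 in 18. Cdkn1a, the cell-cycle inhibitor p21, was above in 22 and Herpud1, a protein of endoplasmic reticulum stress, below in 21. Of the listed output genes only these and Nampt (above in 12) were counted here, and Cdkn1a and Herpud1 are the ones that passed with Arntl over all mice. Clock was above in 14 and below in 11, and Per1 above in 12 and below in 13. Cry1 was above in 19, Npas2 in 17, Rora in 15, Tef in 13, Hlf in 10, Bhlhe41 in 9 and Rorb in 7. Adgre1, a macrophage surface marker, was above in 12 and below in 13, and Lep, the leptin gene, was above in 18. The median of all probes on an array had a median of 0.025 (log10) over these 25 arrays and 0.018 over the other 270, so the arrays' centres lay close together.

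Arntl varied more between mice than Dbp. Over all 295 mice Arntl ran from -1.47 to 1.73 with a median of 0.03 and an SD of 0.58 ± 0.02 (SE), and 10.1% of probes had an SD at least as large. Dbp ran from -0.93 to 1.07 with a median of -0.06 and an SD of 0.37 ± 0.02, a spread reached by 29.3% of probes. The median SD of all probes was 0.29. The central 90% of mice spanned 4.28-fold for Arntl and 2.33-fold for Dbp. These folds rest on reading the deposited values as log10, and reading them as log2 gives 1.55-fold and 1.29-fold.

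Within the sets the levels overlapped widely. Arntl had a median of -0.23 in Eif2s3y-low mice (from -1.47 to 1.73), 0.31 in Eif2s3y-high mice free of epididymis transcripts (from -0.98 to 1.68) and 0.21 in those with them (from -0.56 to 0.85). Dbp had medians of 0.17 (from -0.80 to 1.07), -0.15 (from -0.78 to 0.86) and -0.23 (from -0.93 to 0.15) in the same order. Eif2s3y-low mice thus had the lowest median of Arntl and the highest of Dbp.

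With macrophage level in the model, Arntl was 0.33 ± 0.07 (log2, SE) higher in Eif2s3y-high mice free of epididymis transcripts than in Eif2s3y-low mice (limma, Benjamini-Hochberg adjusted p = 1.26e-05). Of all probes, 57.8% passed in that comparison (57.4% without the mice from 334 up), so the call by itself is common. The Arntl difference was 0.61 without the macrophage term and 0.22 with blocks of 10 successive mice in the model. For Dbp that difference was -0.09 ± 0.04 and did not pass (adjusted p = 0.0648). It was -0.30 and passed without the macrophage term (adjusted p = 3.23e-11), and -0.03 without the mice from 334 up (adjusted p = 0.50). Between Eif2s3y-high mice with and without epididymis transcripts, Dbp was 0.27 lower with them (-0.27 ± 0.05, adjusted p = 9.57e-07), in a comparison where 68.9% of probes passed (66.1% without the mice from 334 up). Of the probes that passed only 26.3% were higher with epididymis transcripts, so lower was the common direction. With array medians removed the Dbp difference was -0.19 (adjusted p = 0.000523). Arntl differed between these sets by -0.0015 ± 0.08 in the main fit (adjusted p = 0.99). Without the mice from 334 up, however, Arntl was 0.16 ± 0.06 higher with epididymis transcripts (adjusted p = 0.0141), and 17 of the 25 mice left out belong to the set without them.

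Arntl and Dbp moved in opposite directions from mouse to mouse. After the mean of each set was removed, Pearson's r was -0.74 and Spearman's rho -0.67 over 295 mice (permutation within sets, two-sided, p = 1e-05 for both, the smallest that 100000 permutations can give; adjusted p = 1.67e-05). The pair was taken up with this opposition already known, so the p is no independent evidence of it. A Dbp level higher by 1 log2 unit went with an Arntl level lower by 1.16, and Dbp accounted for 55.0% of the variance of Arntl. On 213 of 295 mice (72.2%) the genes lay on opposite sides of their set means. The 5 mice with the lowest Arntl, from -1.47 to -1.23, had Dbp between 0.45 and 1.07. The 5 with the highest, from 1.46 to 1.73, had Dbp between -0.75 and -0.56.

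Without the mice from 334 up, r was -0.65 and rho -0.58 over 270 mice. Within the 25 mice alone it was -0.39 with their set means removed (rho -0.30) and -0.28 with set means kept (rho -0.19). Leaving out the 2 mice farthest from the median of Dbp gave -0.73. Within sets r was -0.79 in the 142 Eif2s3y-low mice, -0.71 in the 105 Eif2s3y-high mice free of epididymis transcripts and -0.43 in the 48 with them. Without the mice from 334 up these became -0.74, -0.52 and -0.32. The slope of Arntl on Dbp was -1.15, -1.16 and -0.59 in the 3 sets, and the difference between the slopes did not pass (limma F test, adjusted p = 0.25, with 8.46% of probes called). Among the 99 mice with the lowest numbers r was -0.72, among the 98 in the middle -0.60 and among the 98 with the highest -0.77.

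**Figure D2:**
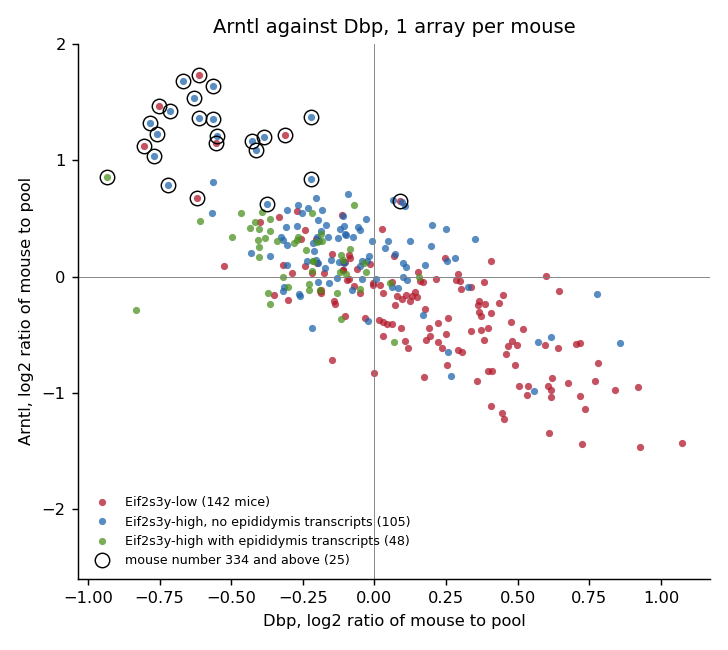
Arntl against Dbp as log2 ratios to the pool, 1 point per mouse, coloured by set, with the 25 mice numbered 334 and above ringed. Points fall from upper left to lower right (r = -0.74 with set means removed), and the ringed mice form the upper left end.

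Arntl rose and Dbp fell with macrophage level, the mean z-score of the surface marker Adgre1 and the lysosomal marker Cd68. With set means removed r was 0.41 for Arntl (rho 0.45) and -0.49 for Dbp (rho -0.45), each with an adjusted p of 1.67e-05 by permutation. Without the 2 mice farthest from the median macrophage level they were 0.42 and -0.48, and without the mice from 334 up 0.55 and -0.57. For Arntl the 3 sets gave 0.44, 0.36 and 0.46. For Dbp they gave -0.66 in Eif2s3y-low mice, -0.27 in Eif2s3y-high mice free of epididymis transcripts and -0.018 in those with them (adjusted p = 0.90), so the Dbp relation was not seen in that set. By rank it was not seen in Eif2s3y-high mice free of epididymis transcripts either (rho -0.097, adjusted p = 0.34). Among the mice of low, middle and high number r was 0.55, 0.53 and 0.25 for Arntl and -0.58, -0.50 and -0.38 for Dbp. Lep, whose transcript is known to rise with fat mass, had r = 0.17 with Arntl (rho 0.14, adjusted p = 0.00536) and -0.31 with Dbp (rho -0.27, adjusted p = 1.67e-05), with set means removed. Among mice numbered below 334 these were 0.080 (adjusted p = 0.22) and -0.26. The opposition of the genes was -0.68 after macrophage level was removed as well, and -0.49 in that model without the mice from 334 up.

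To see which genes followed each member, every probe was fitted on Arntl, or on Dbp, with macrophage level and set in the model. The measure of likeness is the partial correlation over 295 mice, written r below. These fits treat the mice as independent, but mice with neighbouring numbers resembled each other in Arntl, Dbp and some clock genes, as shown further below. The adjusted p-values of genes that followed Arntl or Dbp can therefore overstate the evidence. For Arntl 374 of 22893 probes passed an adjusted p of 0.05 (1.63%), 174 higher with Arntl (0.76%) and 200 lower (0.874%). For Dbp 6949 passed (30.4%), 3539 higher (15.5%) and 3410 lower (14.9%). In mice numbered below 334 the Arntl count was 3734 (16.3%, with 7.65% higher and 8.66% lower) and the Dbp count 7504 (32.8%, with 17.3% higher and 15.4% lower), so the small Arntl count rests on those 25 mice. Without the macrophage term the counts were 5937 for Arntl and 10466 for Dbp.

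Among clock repressors and E-box outputs, the arm of the loop that Dbp belongs to, those that passed were lower with Arntl and higher with Dbp. Of 9 measured members, 5 were lower with Arntl and none higher, with a median r of -0.23 against 0.0039 over all genes. With Dbp 7 were higher and none lower, with a median r of 0.37 against 0.0050. Over the 270 earlier mice the counts were 3 and 6, and the median r was -0.15 and 0.35. The 3 with Arntl were Nr1d2, Per2 and Per1, of which Per1 was not among the 5.

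Apart from Dbp itself (r = -0.68 in this fit), Nr1d2 was the gene most opposed to Arntl, first of 11452 genes from the negative end with both members left out, with r = -0.65 (adjusted p = 2.75e-33). In the 270 earlier mice it was still first, at -0.48. In the 3 sets its r was -0.68, -0.70 and -0.62. With Dbp its r was 0.55. Nr1d1, which encodes REV-ERB alpha, was the gene most like Dbp, with r = 0.63 (adjusted p = 2.3e-29) and 0.58 without the mice from 334 up. Its r with Arntl was -0.32, and -0.15 without those mice (adjusted p = 0.064), where it no longer passed.

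Per2, a period gene, had r = -0.45 with Arntl and 0.55 with Dbp, and -0.34 and 0.49 without the mice from 334 up. Per3 had r = -0.23 with Arntl, which did not pass without those mice (-0.15, adjusted p = 0.068), and 0.37 with Dbp, which did (0.35). Bhlhe40 had r = 0.56 with Dbp and 0.43 without the 25 mice. With Arntl its r was -0.29 over all mice (adjusted p = 0.000219) but 0.023 without them (adjusted p = 0.88), so that relation rests on the mice from 334 up. Bhlhe41 (r = 0.24) and Hlf (r = 0.16, adjusted p = 0.0256) passed with Dbp alone. Hlf did not pass without the 25 mice (0.11, adjusted p = 0.155). Per1 and Tef, the latter from the same family of D-box activators as Dbp, passed with neither over all mice: Per1 had r = -0.15 and 0.054, and Tef -0.039 and 0.015. Leaving out the mice from 334 up, Per1 was lower with Arntl (r = -0.19, adjusted p = 0.0165), as it was over all mice at a fixed Dbp level (-0.16, adjusted p = 0.0238).

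The list of 6 measured genes on the activator side holds Clock, Npas2, Rora and Rorb, and also the repressors Nfil3 and Cry1. On it 1 gene was higher with Arntl (0.76% of all probes) and 2 lower with Dbp (14.9% of all probes). A list of 6 genes is too short to set these counts against the shares over all probes, and every call came from Nfil3 or Cry1. Nfil3 was first of 11452 genes from the positive end for Arntl (r = 0.57, adjusted p = 3.22e-23) and, apart from Arntl itself, first from the negative end for Dbp (r = -0.59, adjusted p = 4.34e-25). Among mice numbered below 334 its r was 0.46 and -0.50. With Dbp it was -0.70 in Eif2s3y-low mice, -0.50 in Eif2s3y-high mice free of epididymis transcripts and -0.32 in those with them (adjusted p = 0.117). Cry1, a cryptochrome, had r = -0.15 with Dbp (adjusted p = 0.0415) and -0.050 without the 25 mice (adjusted p = 0.57). Clock, the partner of BMAL1, had r = -0.057 with Arntl and 0.016 with Dbp. Npas2, which can stand in for CLOCK, had 0.15 and -0.050, and the ROR genes Rora and Rorb lay between -0.072 and 0.031. None of these 4 genes passed in either fit.

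Of 6 modifiers of clock proteins none passed with Arntl. With Dbp the casein kinase genes Csnk1e (r = 0.27) and Csnk1d (r = 0.17) were higher and Btrc, a ubiquitin ligase subunit, lower (r = -0.14). Timeless, Sirt1 and Ppargc1a lay between -0.11 and 0.085 with Dbp and did not pass. Among 9 genes listed as rhythmic outputs in many tissues, Cdkn1a was higher (r = 0.32) and Herpud1 lower (r = -0.28) with Arntl. With Dbp Herpud1 was higher (r = 0.23), and Cdkn1a (r = -0.29) and Gys2, the liver glycogen synthase (r = -0.15), were lower. Of all probes 30.4% passed with Dbp and 1.63% with Arntl (16.3% without the mice from 334 up). The Dbp calls among the outputs are therefore near the share over all probes, and the modifiers are few. Nampt, the enzyme of NAD salvage, had r = -0.19 with Arntl (adjusted p = 0.0617) and -0.30 without the mice from 334 up (adjusted p = 4.98e-05). Wee1, Usp2, Tsc22d3, Alas1 and Lpin1 passed with neither over all mice, with r between -0.15 and 0.14. Of these Lpin1 passed with Arntl without the 25 mice (r = -0.20, adjusted p = 0.00854).

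**Figure D3:**
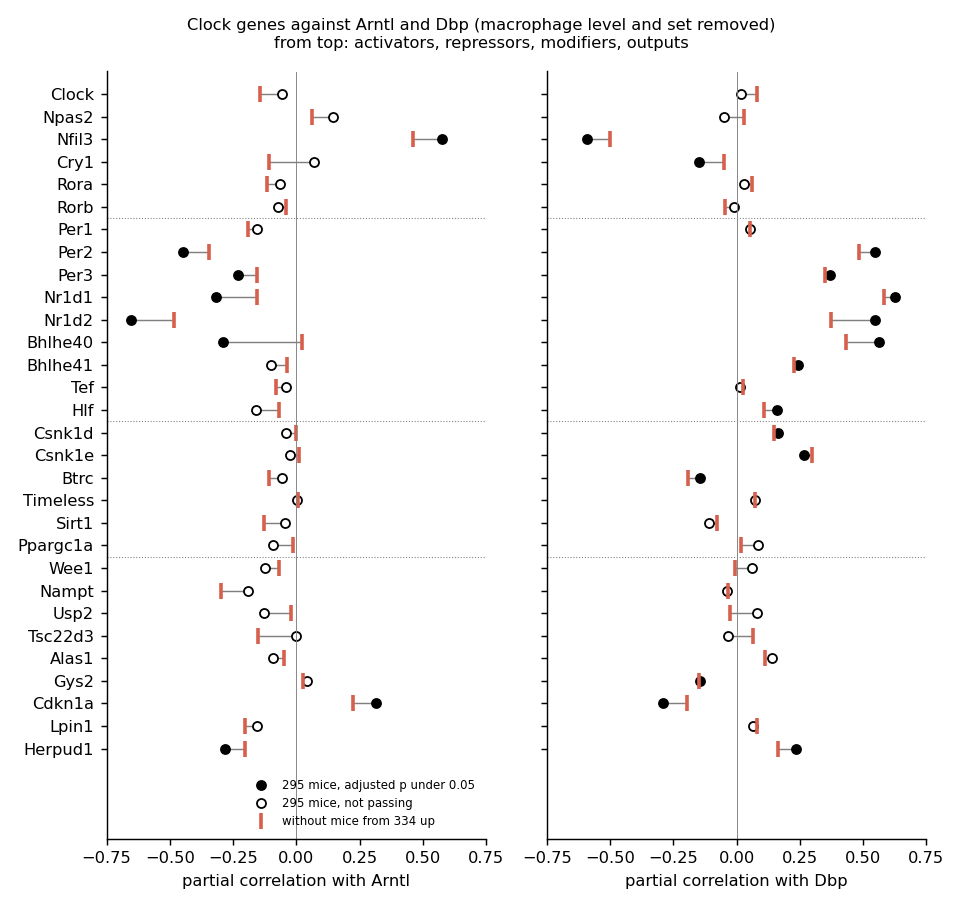
Partial correlation of clock genes with Arntl (left) and Dbp (right) over mice, macrophage level and set removed, ordered by list. The repressors Nfil3 and Cry1 stand in the activator list. Filled circles passed an adjusted p of 0.05 over 295 mice, open circles did not, and red bars give the value without the mice numbered from 334 up; Nfil3 (0.57) and Nr1d2 (-0.65) mark the ends for Arntl, and the bar of Bhlhe40 moves to 0.023.

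With both genes in 1 model, 6534 probes followed Arntl at a fixed Dbp level (28.5%) and 9820 followed Dbp at a fixed Arntl level (42.9%). Higher with the gene were 14.4% and 21.2% of probes. Leaving out the mice from 334 up gave 29.9% and 40.8%, with 14.9% and 20.2% higher. Of 9 clock repressors 6 were higher with Dbp at a fixed Arntl level and 0 lower, with a median r of 0.24. With Arntl at a fixed Dbp level 2 were higher and 2 lower (Nr1d2 and Per1), with a median r of -0.039. Per2 (r = 0.37), Per3 (0.30), Nr1d1 (0.59), Bhlhe40 (0.52) and Bhlhe41 (0.24) were higher with Dbp at a fixed Arntl level. Nr1d2 kept both, at -0.46 with Arntl and 0.18 with Dbp, and so did Nfil3, at 0.29 and -0.33. Nr1d1 and Bhlhe40 were higher with Arntl at a fixed Dbp level (r = 0.19 and 0.15), the opposite sign to their r with Arntl alone. Because Arntl and Dbp are themselves strongly related, each joint value describes what is left when the other gene is held fixed.

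Outside the clock lists, 12 genes on each side are named for each member. Those most opposed to Arntl were led by Il15ra, a subunit of the interleukin 15 receptor (r = -0.47, and 0.52 with Dbp), and Cys1, which encodes the cilium protein cystin (r = -0.42, and 0.58 with Dbp). Next came Gstt2 and Gstt1, glutathione transferases (r = -0.34 and -0.30), Nrg4, a factor secreted by brown fat (-0.33), and Mapk12, a p38 kinase (-0.30). Ifit3, an interferon-induced gene, Fam20c, a kinase of secreted proteins, Hk2, a hexokinase, Mrps35, Rev1 and Lsm10 had r between -0.30 and -0.27. In mice numbered below 334, 11 of the 12 still passed, with r from -0.45 to -0.14.

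Genes that rose with Arntl were Dapk1, a kinase linked to cell death (r = 0.44), Trp53i11, a p53-inducible gene (0.41), Galnt18 (0.37), Dtx4 (0.36), Arhgap20 (0.35) and Msc (0.35). The mitosis genes Kif22 and Racgap1 (both 0.32) and Pimreg (0.30) rose as well, with Lonrf3 (0.32), Adam12, a metalloproteinase (0.30), and Cldn5, a tight junction gene of endothelium (0.32). Over the 270 earlier mice 10 of the 12 still passed. Arhgap20 then had r = 0.023 and Cldn5 -0.048, whereas Kif22 rose to 0.48 and was the gene most like Arntl, ahead of Nfil3. Racgap1 was then at 0.44.

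Genes that rose with Dbp were Cys1 (r = 0.58), Il15ra (0.52), Rere, a nuclear corepressor (0.51), Prickle1, a planar polarity gene (0.48), Cpeb1, a regulator of translation (0.48), PIGZ (0.46), Mapk12 (0.46), Plekha6 (0.45), Trip6 (0.45), Trip10 (0.45), Tns2, a tensin (0.44), and Ier3, an immediate early gene (0.43). All 12 passed without the mice from 334 up, with r from 0.30 to 0.59, and Cys1 (0.59) was then first. Genes that fell were Arhgap20 (-0.47), the chaperone gene Hsph1 (-0.42), ALS2CR12 (-0.40), Strap (-0.39), Glrx3 (-0.39), the chaperonin gene Tcp1 (-0.39) and Ptx3, a secreted pentraxin (-0.38). Cldn5 (-0.38), Tmf1 (-0.37) and the cell division genes Anln (-0.37), Smc2 (-0.37) and Nek2 (-0.37) completed them. Of these 12, 11 passed without the mice from 334 up, with r from -0.49 to -0.14, and Cldn5 did not.

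Counts on the other lists stand against all probes, of which 15.5% were higher and 14.9% lower with Dbp. Of 11 immediate early genes, 8 were higher with Dbp and none lower, with a median r of 0.26, led by Ier3 (0.43), Egr1 (0.33) and Ier2 (0.30). Of 10 temperature-response genes, 2 were higher and 4 lower, among them the cold-induced Cirbp (0.29) and the heat-shock genes Hsph1 (-0.42) and Hsp90aa1 (-0.29). Of 12 genes of fasting and feeding, 3 were higher and 4 lower, with Srebf1, the lipogenic regulator, at 0.34, Irs2 at 0.30 and Insig2 at -0.21. Among 9 glucocorticoid-response genes Dusp1 was higher (0.20), and Cdkn1a (-0.29) and Pdk4 (-0.19) were lower. Of 7 brown fat genes Ppara alone passed (0.35), while Ucp1 (0.14) and Elovl3 (0.13) did not. With Arntl 1 gene of 11 passed on the immediate early list, none of 10 on the temperature list and none of 12 on the fasting and feeding list. Leaving out the mice from 334 up gave 2, 3 and 3 genes with Arntl, in fits where 16.3% of all probes passed. On the immediate early list the 1 gene over all mice was lower with Arntl, and the 2 without the 25 mice were higher.

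Markers of cell types showed no common direction with Dbp once Adgre1 and Cd68 were in the model. Among 13 macrophage markers 3 were higher and 4 lower, with C1qb at r = 0.32, Csf1r at 0.24 and Ccr2 at -0.24. The 13 include Adgre1 and Cd68 themselves. With their mean in the model, their r must be equal in size and opposite in sign, so they say nothing about a common direction. Of 10 adipocyte markers 3 were higher, among them Cebpa (0.22) and Slc2a4, the insulin-responsive glucose transporter (0.19), and 1 lower, Lep (-0.25). Endothelial Eng (0.26) and Vwf (0.22) were higher and Pecam1 (-0.20) lower, of 8 measured. None of 9 lymphocyte, 8 epididymis or 5 skeletal muscle markers passed. Their largest values were 0.092 for Ighm, 0.11 for Spag11a and -0.13 for Ckm. One of 4 red cell genes passed, Alas2 (0.17). With Arntl 1 adipocyte marker and 1 brown fat gene (Ppara, -0.26) were lower, and none of the macrophage, lymphocyte, endothelial, epididymis, muscle or red cell markers passed. Leaving out the mice from 334 up, 5 of 10 adipocyte markers were lower with Arntl and 5 of 9 lymphocyte markers higher, and 5 of 8 endothelial markers were higher with Dbp. Over all probes of those fits 8.66% were lower and 7.65% higher with Arntl, and 17.3% higher with Dbp.

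Over the whole run of mice Arntl rose and Dbp fell with mouse number, within sets. Arntl changed by 0.17 ± 0.03 (log2 per 100 numbers, SE; r = 0.34, rho 0.27, limma adjusted p = 2.29e-06) and Dbp by -0.12 ± 0.02 (r = -0.38, rho -0.34, adjusted p = 6.86e-08). By permutation within sets both had p = 1e-05 (adjusted p = 1.67e-05). Both tests treat the mice of a set as exchangeable, but mice with neighbouring numbers resembled each other, so these p-values overstate the evidence for a trend. The drift was also known when the pair was taken up, so they are no independent evidence of it. Mouse number had 2351 of 22894 probes past the threshold (10.3%), 4.52% higher and 5.75% lower. The higher probes were 44.0% of those called, and removing each array's median lowered that share to 24.7%. Arntl stood first among named genes on the positive side, ahead of Slc24a1 (r = 0.32), Crybg3 (0.31), Duoxa1 (0.31) and Adamts5 (0.31). Dbp came second on the negative side, after Skap2 (-0.52) and before Ier3 (-0.37), Cftr (-0.37) and Smpdl3b (-0.35).

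In the 270 earlier mice the Arntl trend was 0.03 ± 0.03 per 100 numbers (r = 0.077, limma adjusted p = 0.43), and the Dbp trend was -0.06 ± 0.02 (r = -0.20, adjusted p = 0.021), with 6.85% of probes called, 2.73% higher and 4.13% lower. The Arntl drift therefore rested on the last 25 mice, and a smaller Dbp drift was present without them. Among clock repressors 4 of 9 fell with mouse number over all mice and 1 without the 25, Nr1d1 (r = -0.31 and -0.23). Of 13 macrophage markers 11 rose with mouse number, with a median r of 0.19 against 0.0098 over all genes. With macrophage level in the model the drift was 0.13 for Arntl (adjusted p = 0.000504) and -0.09 for Dbp (adjusted p = 3.43e-05). Leaving out the 2 mice with numbers farthest from the median gave r = 0.32 and -0.37. The sets gave 0.25, 0.50 and 0.29 for Arntl, and -0.35, -0.48 and -0.23 for Dbp. In the limma fits within sets Arntl did not pass in Eif2s3y-low mice (adjusted p = 0.054) or with epididymis transcripts (0.43), nor did Dbp with them (0.56). The labels do not say what the mouse number stands for, so litter, age, dissection and array order cannot be told apart.

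Mice with neighbouring numbers resembled each other in both genes. The correlation of a mouse with the next mouse was 0.48 for Arntl and 0.26 for Dbp with set means removed (permutation of the order within sets, two-sided, adjusted p = 2.88e-05 and 3.83e-05). Of 22894 probes Arntl ranked second, behind Cyp1a1 (0.50), a gene induced through the aryl hydrocarbon receptor. Dbp ranked 84, and 0.367% of probes were at least as high. Nr1d2 had 0.28, Per2 0.21 and Bhlhe40 0.19, whereas Clock had 0.020 and Per1 -0.057. Macrophage level had 0.050 (adjusted p = 0.47). The drift with mouse number was known when the pair was taken up, and a shifted run of successive mice gives such likeness by itself. The p-values and ranks of Arntl and Dbp are therefore no independent evidence.

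The mice from 334 up carried most of this likeness. Without them the value was 0.17 for Arntl (adjusted p = 0.00945), reached by 2.47% of probes, and 0.056 for Dbp (adjusted p = 0.46), reached by 31.9%. For neighbours of the same set Arntl was then 0.21 (195 pairs), and for neighbours of different sets 0.018 (74 pairs, adjusted p = 0.88). Per2 had 0.18 without the 25 mice, above Arntl.

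**Figure D4:**
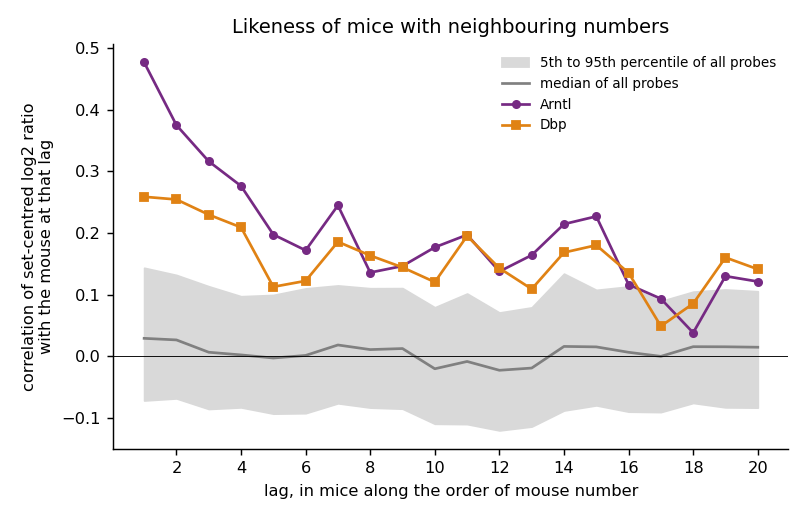
Correlation of a mouse's set-centred log2 ratio with that of the mouse 1 to 20 places later in the order of mouse number, for Arntl and Dbp over 295 mice, with the median and the 5th to 95th percentile of 22894 probes. Arntl starts at 0.48 and Dbp at 0.26, both above the shaded range, which ends at 0.14 at lag 1.

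Blocks of 10 successive mice, with 5 in the last, gave the same picture at a coarser grain. Block means ran from -0.38 to 1.50 for Arntl and from -0.84 to 0.30 for Dbp after set means were removed, and in 25 of 30 blocks the 2 means had opposite signs. The final 3 blocks stood at 1.06 ± 0.26, 0.75 ± 0.27 and 1.50 ± 0.40 (SD over mice) for Arntl and at -0.50 ± 0.12, -0.35 ± 0.22 and -0.84 ± 0.11 for Dbp. The correlation of block means was -0.94 (rho -0.76, 30 blocks), and within blocks, with block and set means removed, r was -0.61 over 295 mice. For both genes the final 3 blocks lay outside the range of the other block means. The correlation of block means was not run without them, so its size may rest on those blocks. Means over mice whose values oppose each other would oppose as well, so the block means are no separate evidence of opposition. The value within blocks shows that it was present among mice of neighbouring number. Apart from the last 25 mice, the longest runs on one side of the set mean were 10 mice for Arntl, numbers 9 to 18, all below, and 7 mice for Dbp, reached both in numbers 43 to 50 and in numbers 61 to 70, all above.

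**Figure D5:**
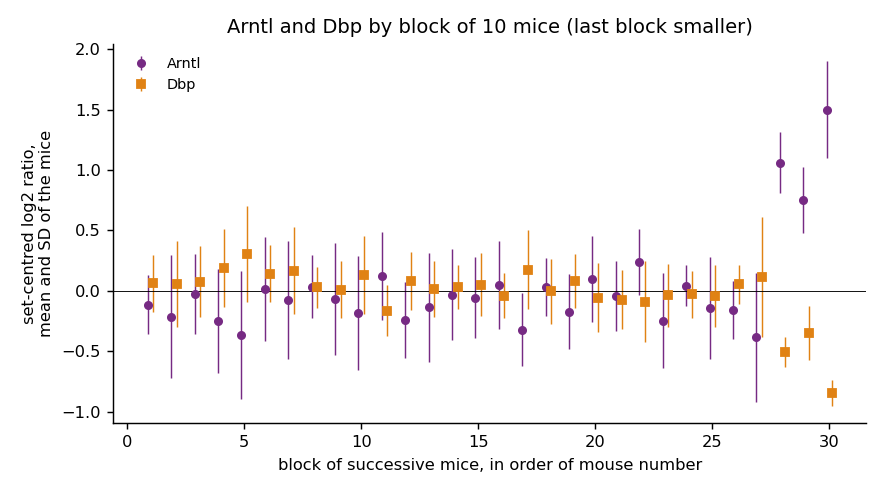
Mean and SD of the set-centred log2 ratio of Arntl and Dbp in 30 blocks of successive mice, 10 mice each except 5 in the last. The final 3 blocks lie at 0.75 to 1.50 for Arntl and at -0.84 to -0.35 for Dbp, apart from the earlier blocks.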

How the data were processed

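RNA of 295 mice was measured on 2-colour arrays, 1 per mouse. The authors deposited log ratios of 23387 probes, read here as log10; neither base, direction, background correction nor normalization is stated in the labels. The Y-linked gene Eif2s3y had a median log2 ratio of 1.26 in 153 high mice if the base is 10, 0.38 if it is 2 and 0.55 if it is e. A pool of equal portions would give 0.95, nearest to base 10 with the mouse over the pool. Deposited array means lay between -0.0099 and 0.025. Of 43365 array pairs 944 had r under -0.3 (lowest -0.52), all between arrays with and without epididymis transcripts; the labels state the dyes, and the direction was kept.

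To obtain log2 ratios, each value was multiplied by 3.32. Probes measured in at least 90% of mice were kept (22894), with 7762 gaps filled by the probe's mean; Arntl and Dbp had none. A gene is its most variable probe with 1 symbol, from the platform annotation updated to RefSeq GRCm38.p6. All models used limma 3.58.1 (R 4.3.3), p-values were adjusted over all probes by Benjamini-Hochberg, and single correlations were tested with 100000 permutations and adjusted over all correlations of that kind, those with Lep included. Partial r comes from the same fits. In simulated data 88% of probes with a true r of 0.3 on Dbp (set means removed) were recovered, 94% on Arntl and 95% on mouse number, and all of those with 0.4. Of the unchanged probes 11, 6 and 10 passed in the same order. The simulated noise was independent between probes and between mice, without likeness of neighbours or a shifted run of mice. Recovery in the real data can therefore differ. Arrays give no depth, and their number limits precision.

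The members, lists and tests were chosen with earlier results of these data known. Named genes are the members, the measured clock genes, the 12 genes at each end for each member, the 5 at each end for mouse number and the 3 members of every other list with the largest absolute r with Dbp. Leaving out the mice numbered from 334 up, blocks of 10 mice, neighbours by set and the set with epididymis transcripts alone were added after the data were seen.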

Additional observations from a re-analysis of the deposited data

How the results depend on the processing

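The correlation of Arntl and Dbp kept its sign and stayed past the threshold under every alternative run. Its r ran from -0.94 (block means, the mice from 334 up included) to -0.32 (epididymis set without the mice from 334 up). In the fit of all probes on Arntl within the epididymis set, Dbp missed the threshold (r = -0.48, adjusted p = 0.0564). The correlation of Arntl with Lep was -0.033 in mice of middle number and -0.14 in the epididymis set, where Dbp with Lep was 0.18. No paired analysis was possible because the mice form 1 group. No alternative with another probe could be run, as each gene had 1, and neither gene had missing values or values at the limits of the scale. The cause of the changes below was not tested, except that subsets hold fewer mice.

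Probes following Arntl, 374 over all mice, numbered 5937 without the macrophage term, 1369 without the set term, 777 with mouse number and 597 with blocks of low, middle and high number, 2760 with blocks of 10 mice and 3734 without the mice from 334 up. They numbered 72 in Eif2s3y-high mice free of epididymis transcripts, 159 in those with them, 1100 in mice of middle number and 52 in mice of high number. Probes following Dbp, 6949 over all mice, numbered 10466 without the macrophage term, 1979 in Eif2s3y-low mice, 2861 in the epididymis set, 1546 in mice of middle number and 253 in mice of high number. Probes drifting with mouse number, 2351, numbered 10817 without the set term, 1265 with macrophage level, 246 with the first principal component, and 827, 56 and 1 within the 3 sets. That component took the higher share of drifting probes from 44.0% to 31.3%, and dropping the set term took it to 68.2%. For probes following Dbp the share higher lay between 47.7% and 60.3%. For probes following Arntl it was 46.5% over all mice, 41.2% in Eif2s3y-low mice, 75.0% in Eif2s3y-high mice free of epididymis transcripts and 78.0% in those with them, and 62.7%, 65.5% and 55.8% in mice of low, middle and high number.

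For the genes themselves, the Arntl drift was 0.077 without the mice from 334 up, and the Dbp drift -0.23 in the epididymis set. Likeness of neighbours without those mice was 0.056 for Dbp, 0.073 within the same set and -0.032 between different sets, and 0.018 for Arntl between different sets. Over all mice it was 0.086 for Dbp between different sets. The Dbp difference between Eif2s3y-high and Eif2s3y-low mice passed without the macrophage term (-0.30) and with array medians removed (-0.0945). The Arntl difference with epididymis transcripts turned to 0.23 with blocks and 0.16 without the mice from 334 up. Read as log2, the central spans were 1.55-fold and 1.29-fold.

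Single genes were run for the pairs named in the text, a choice made with results in view, and several changed the sign of r. In the epididymis set r with Arntl was 0.083 for Per3, 0.23 for Nr1d1, 0.31 for Bhlhe40, 0.051 for Mapk12, 0.19 for Fam20c, 0.12 for Mrps35 and 0.065 for Lsm10. With Dbp there it was -0.15 for Hlf, -0.098 for Csnk1d, 0.12 for Gys2, 0.22 for Pdk4 and 0.18 for Lep. In mice of middle number it was 0.089 for Bhlhe40 and -0.14 for Arhgap20 with Arntl, and 0.031 for Cry1, -0.025 for Hlf, 0.084 for Btrc, -0.057 for Herpud1 and 0.078 for Insig2 with Dbp. In mice of low number it was -0.035 for Cldn5 with Arntl and 0.14 for Pdk4 with Dbp, and in mice of high number 0.053 for Btrc and -0.089 for Slc2a4 with Dbp. Btrc was at 0.034 in Eif2s3y-low mice. Without the mice from 334 up r with Arntl was 0.023 for Bhlhe40 and -0.048 for Cldn5. Without the macrophage term r with Dbp was 0.011 for Cry1, -0.17 for C1qb and -0.30 for Csf1r, and without the set term 0.035 for Pdk4 and -0.063 for Cirbp.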
